A study of Drosophila melanogaster with 6 samples.

Results

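Reads of exactly 51 nt, the longest length listed in the deposited tables, were collected from 6 libraries of small RNAs that matched nuclear tRNA genes of Drosophila melanogaster. A read belonged to this class when its listed sequence was 51 nt long, and each sequence was counted once per library however many tRNA genes it was listed under. This gave 426 distinct sequences of 3423 listed, and 7517 reads of 199969. Of the 426, 269 had a single read in all libraries together, whereas the 5 most frequent held 70.4% of the reads. The libraries came from adult male flies, whole body without testes, on a w1118 background. The 3 heterozygote libraries carried 1 Dnmt2 mutant allele and 1 wild-type allele, so the reference group was itself heterozygous, and the 3 mutant libraries carried mutant alleles on both chromosomes. In each genotype 1 library came from untreated flies of 10 days, 1 from flies of 10 days kept at 37 °C for 1 hour and then at room temperature for 5 hours (heat shock), and 1 from flies of 12 days that had 2 days after the same heat treatment (recovery). Recovery therefore differed from control in age as well. Values of the 3 libraries of a genotype are given in the order control, heat shock, recovery. RNAs of 25 to 70 nt were cut from a gel before sequencing. Each group was 1 library with no replicate, and no label says that libraries came from separate cultures, so the p-values below rest on the spread between single libraries. No label gives the sequencing run or lane, so genotype and run cannot be told apart.

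Transfer RNAs fold into a cloverleaf whose anticodon loop lies near the middle of the chain. Under stress, ribonucleases cut that loop and leave 5′ and 3′ tRNA fragments. Dnmt2 is a methyltransferase that places a methyl group on a cytosine beside the anticodon of tRNA Asp-GTC, Gly-GCC and Val-AAC, and in flies this mark is known to protect these tRNAs from cleavage. A 5′ fragment made this way ends in the anticodon loop, whereas a read that starts at the first base and is 51 nt long runs through the anticodon into the arm on its 3′ side. The annotated tRNA genes on which most of these reads lay are 71 to 73 nt long, so a read of 51 nt from the first base leaves 20 to 22 bases unread. Whether the RNA ended at the last base read or went on cannot be told apart, since no longer read is listed.

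Starts of Gly-TCC and of glutamine copies, whose 51-nt reads were higher in mutants, are shown first, because they hold the bases that separate the copies. The first is the 51-nt start of Gly-TCC, from a copy named Gly-TCC-1 on arm 3R, and the others are starts of 3 glutamine copies, from arm 2L for Gln-CTG-4 and Gln-CTG-3 and from arms 3L and 3R for Gln-TTG-1. The capitals mark the anticodon, at bases 34 to 36.
Gly-TCC-1: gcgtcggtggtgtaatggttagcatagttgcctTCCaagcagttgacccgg
Gln-CTG-4: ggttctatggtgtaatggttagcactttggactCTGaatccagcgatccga
Gln-CTG-3: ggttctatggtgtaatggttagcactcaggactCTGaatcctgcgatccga
Gln-TTG-1: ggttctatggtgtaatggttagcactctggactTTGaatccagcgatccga
Counted from 1 at the 5′ end, Gln-CTG-4 and Gln-TTG-1 differed by T27C and C34T, and Gln-CTG-4 and Gln-CTG-3 by T27C, T28A and A42T. The tables listed 409 of the Gln-CTG reads of 51 nt under both anticodons, and the nearest copy was taken as their source, as for 80 reads of Gln-TTG. Heterozygotes held 24, 46 and 28 reads of the exact Gly-TCC-1 sequence, and mutants held 400, 227 and 27. The exact Gln-CTG-4 sequence had 2, 5 and 7 against 144, 38 and 2. For Gln-CTG-3 the reads were 5, 6 and 5 against 67, 20 and 2, and for Gln-TTG-1 they were 1, 3 and 2 against 32, 13 and 1. Starts of the other isoacceptors are given by their counts alone. The most frequent of all, the exact start of Glu-CTC-1 and Glu-CTC-3, had 304, 1019 and 756 reads against 310, 278 and 26. All of these are raw counts from libraries of 5113 to 67477 reads, so they do not compare the genotypes directly.

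The most frequent read of 30 to 35 nt ended in the anticodon or just before it in each of 4 isoacceptors, which are shown for comparison with the longer reads. Lower case is used throughout because none holds a whole anticodon.
Gly-TCC, 34 nt, arm 3R: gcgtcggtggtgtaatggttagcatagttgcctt
Gln-TTG, 34 nt, arms 3L and 3R: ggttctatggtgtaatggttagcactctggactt
Lys-TTT, 33 nt, arm 3R: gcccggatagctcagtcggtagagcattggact
Asp-GTC, 35 nt, arms 2L, 3L and 3R: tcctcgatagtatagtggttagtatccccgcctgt
The Lys-TTT read held 0 bases of the anticodon, the Gly-TCC and Gln-TTG reads 1 and the Asp-GTC read 2. These sequences had 108 of 266 reads of that length for Gly-TCC, 46 of 115 for Gln-TTG, 5709 of 8335 for Lys-TTT and 3101 of 4618 for Asp-GTC. At 51 nt the same isoacceptors had 1061 (Gly-TCC), 87 (Gln-TTG), 7 (Lys-TTT) and 4 (Asp-GTC) reads.

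The libraries differed in depth, the heterozygote ones holding 15336, 46059 and 28521 reads and the mutant ones 67477, 37463 and 5113. Reads of 51 nt numbered 535, 1822 and 1275 in heterozygotes and 2135, 1408 and 342 in mutants. They made up 3.49%, 3.96% and 4.47% of the heterozygote libraries (95% Wilson intervals of 3.21 to 3.79%, 3.78 to 4.14% and 4.24 to 4.72%) and 3.16%, 3.76% and 6.69% of the mutant libraries (3.03 to 3.30%, 3.57 to 3.96% and 6.04 to 7.41%). These intervals, like every interval below, cover counting error only. The mutant recovery library, the shallowest, stood above the other 5, and the remaining mutant libraries lay slightly below their heterozygote partners. Gly-GCC alone held 213 of the 342 reads of mutant recovery. That was 4.17% of the library, against 0.243% to 0.480% in the other 5. Mutant minus heterozygote was -0.32, -0.20 and 2.22 percentage points, a mean of 0.57 ± 1.43 (SD over 3 conditions; exact sign-flip test, 2-sided, p = 1, where 3 conditions cannot give a p under 0.25). Without the recovery pair the mean was -0.26 points.

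Between 44 and 51 nt, counts per length were lowest at 47 to 49 nt and highest at 51 nt. All libraries together held 183, 174 and 169 reads at 47, 48 and 49 nt, 736 at 50 nt and 7517 at 51 nt. Heterozygotes had 46, 115 and 86 reads at 50 nt, mutants 267, 202 and 20.

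**Figure D1:**
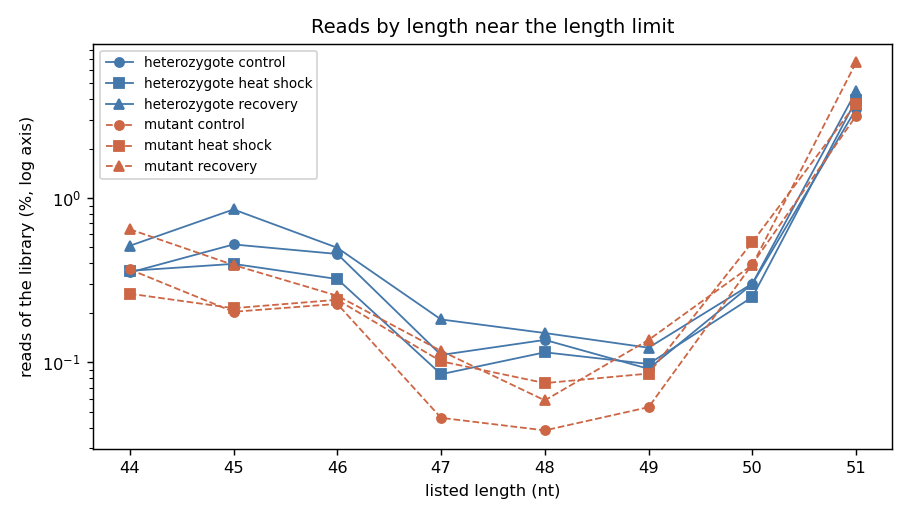
Reads at each listed length from 44 to 51 nt as a percentage of the library (log axis), 1 line per library, solid for heterozygotes and dashed for mutants, with the condition shown by the marker. All 6 lines are highest at 51 nt, where they lie between 3.16% and 6.69%.

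A few isoacceptors held nearly all 51-nt reads. Of 44 isoacceptors listed, 26 had such a read, and the 6 most frequent in a library took 95.7% to 98.9% of its 51-nt reads. Pooled over libraries, Glu-CTC made up 50.9% of 51-nt reads and 15.8% of reads of 30 to 35 nt, Gly-TCC 14.1% and 0.157%, Gly-GCC 12.1% and 53.1%, Gln-CTG 9.90% and 0.173%, Glu-TTC 8.79% and 1.46%, and His-GTG 1.60% and 0.415%. In these pooled shares the 2 glutamate tRNAs, Gln-CTG and Gly-TCC stood higher at 51 nt, and Gly-GCC, the most abundant at 30 to 35 nt, stood lower in 5 of 6 libraries. In mutant recovery Gly-GCC stood higher at 51 nt, at 62.3% against 56.1%. The pooled values leaned on mutant control, without which Gly-TCC made up 9.05% of 51-nt reads, Gln-CTG 5.91%, His-GTG 0.873% and Gly-GCC 10.9%.

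Gly-TCC is a glycine tRNA outside the list of Dnmt2 substrates. It made up 4.86%, 3.24% and 2.82% of the 51-nt reads of heterozygotes and 26.9%, 23.1% and 12.0% of those of mutants. Its share of reads of 30 to 35 nt lay between 0.0451% and 0.222%. Reads of 51 nt were the larger part of all Gly-TCC reads, 66.1% over the 6 libraries, where for Gly-GCC they were 0.893%.
Within the Gly-TCC reads heterozygotes had 35.6%, 40.7% and 26.1% at 51 nt and mutants 74.5%, 77.8% and 68.3%, with no overlap between the genotypes. Gln-CTG gave the same order at lower values, with 16.7%, 17.9% and 9.26% in heterozygotes and 50.7%, 43.5% and 32.1% in mutants. Gln-TTG did not overlap either, at most 15.4% in heterozygotes and at least 40% in mutants. Glu-CTC separated in the reverse order, at least 11.54% in heterozygotes and at most 11.04% in mutants. Gly-GCC, Glu-TTC and His-GTG overlapped. The genotype difference in these shares was not tested, and separation by this measure was not counted over all isoacceptors.

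Lys-CTT, Lys-TTT, Asp-GTC and Cys-GCA were abundant at 30 to 35 nt and rare at 51 nt. Lys-CTT had 39 reads of 51 nt and 25722 of 30 to 35 nt, Lys-TTT 7 and 8335, Asp-GTC 4 and 4618, and Cys-GCA 1 and 3784. In each of the 6 libraries the share of each of these 4 was lower at 51 nt. Val-AAC had 0 of 7517 reads at 51 nt, but it had few reads at 30 to 35 nt as well, at most 8 in a library. Of the 3 Dnmt2 substrates, Gly-GCC was therefore the one that could be followed at this length, and the 3 together made up 12.2% of 51-nt reads and 55.9% of reads of 30 to 35 nt. The 8 isoacceptors whose gene has A as the first anticodon base, which is edited to inosine in the mature tRNA, had 23 reads of 51 nt (0.306%), of which 20 were Pro-AGG. Their share of reads of 30 to 35 nt was 0.746%. Leucine, serine and selenocysteine tRNAs, which carry a long variable arm, had 12 (0.160%) over 11 isoacceptors or shared groups. That was close to their 0.189% of reads of 30 to 35 nt, whereas they made up 6.28% of reads of 36 to 50 nt.

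**Figure D2:**
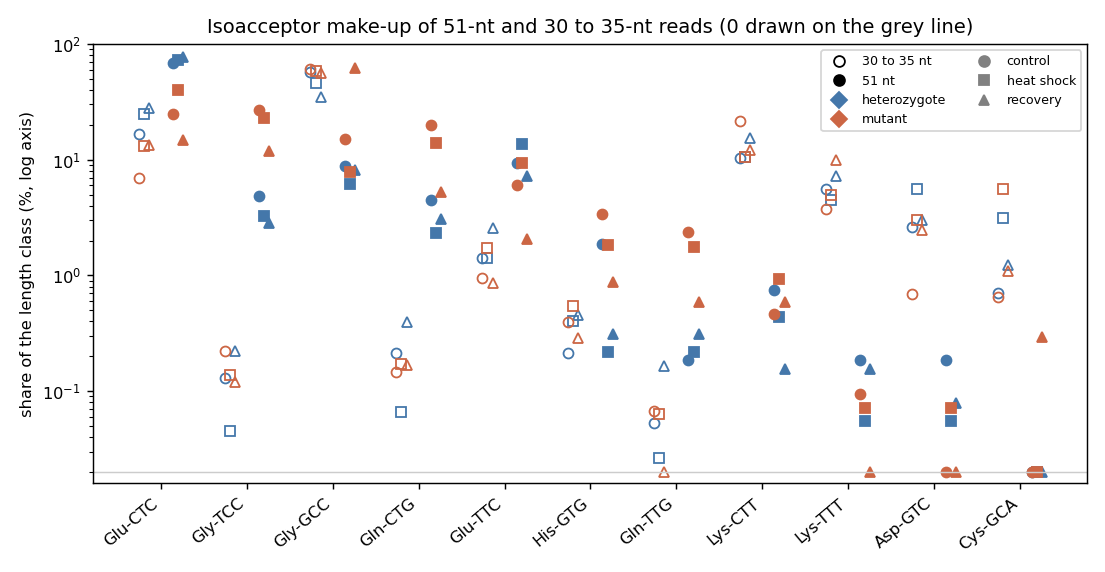
Share of each length class taken by 11 isoacceptors (log axis, in percent), open symbols for reads of 30 to 35 nt and filled symbols for 51 nt, blue for heterozygotes and red for mutants, with the marker giving the condition; values of 0 are drawn on the grey line. Gly-TCC and Gln-CTG stand higher at 51 nt in all 6 libraries, and Lys-CTT, Lys-TTT and Asp-GTC lower.

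The test of this difference compared both length classes of each library, with the library as a block, over the 8 isoacceptors that passed a count minimum (edgeR's quasi-likelihood test with trimmed-mean scaling, Benjamini-Hochberg adjustment). It called 7 of 8 (87.5% of those tested), 3 higher and 4 lower at 51 nt. That count follows in part from the minimum, which asked for 2.92% of a column in 3 columns: Gly-TCC, Gln-CTG and Glu-TTC passed it through 51-nt columns alone, and Asp-GTC, Lys-CTT and Lys-TTT through 30 to 35-nt columns alone. Without the minimum 22 of 47 isoacceptors or shared groups were called, including all of these except Glu-TTC (adjusted p = 0.0556). In log2 units, 51 nt over 30 to 35 nt, Gly-TCC was higher by 5.20 ± 0.83 (SE; adjusted p = 1.71e-06), Gln-CTG by 4.25 ± 0.74 (adjusted p = 5.98e-06) and Glu-TTC by 1.48 ± 0.49 (adjusted p = 0.00629). Asp-GTC fell by 6.76, Lys-TTT by 6.67, Lys-CTT by 5.51 and Gly-GCC by 2.98, with adjusted p between 6.63e-12 and 0.000291. Glu-CTC was not called, at 0.60 ± 0.60 (adjusted p = 0.322), although its share was higher at 51 nt in 6 of 6 libraries; with scaling by total counts it was called, at 1.46, and with relative-log size factors its direction turned, to -0.54. The median over the 8 isoacceptors was -1.19 with trimmed means, -0.33 with total counts and -2.33 with relative-log size factors. On exact-match reads, with trimmed means, Glu-CTC was at -0.61. The cause of these moves was not tested. The Glu-TTC call was lost in 9 of 15 alternatives, DESeq2 and exact-match reads among them. Gly-GCC made up 62.3% of the 51-nt reads of mutant recovery, and its call remained without that library.

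Reads of Gly-TCC and of Gln-CTG of 51 nt rose in mutants. Gly-TCC of 51 nt took 0.170%, 0.128% and 0.126% of all reads of the heterozygote libraries, against 0.851%, 0.868% and 0.802% of the mutant ones. Gln-CTG took 0.156%, 0.0912% and 0.137% and, in mutants, 0.631%, 0.521% and 0.352%. Neither overlapped between genotypes, as was so for 7 of the 27 features tested (25.9%) and, at 51 nt, for Glu-CTC and Gln-TTG too, 4 of 26 isoacceptors with a read (15.4%). The test used all isoacceptors in 3 length classes (30 to 35, 36 to 50 and 51 nt), 27 features past the count minimum, with genotype and condition as terms. It called 2 of 27 (7.41%), and both were 51-nt features: Gly-TCC rose by 3.03 ± 0.29 (edgeR adjusted p = 0.000313) and Gln-CTG by 2.44 ± 0.29 (adjusted p = 0.000612). Higher values were seen in 3 of 3 conditions for each. The minimum was 0.196% of a library in 3 libraries, and both features passed it through the mutant libraries alone, so among the features tested they had to differ. Without the minimum they were called among 119 features, at 2.76 (edgeR adjusted p = 6.12e-06) and 2.17 (adjusted p = 0.00199), and Gln-TTG (2.76, adjusted p = 0.0144) and Gly-GCC (1.62, adjusted p = 0.0234) were called higher as well. Under scaling by total counts, which moved the median of all 27 features from 0.09 to -0.35, 2 were called higher and 7 lower, and the rises were 2.59 and 2.00. Without mutant control or without mutant heat shock both fell under the count minimum and were not tested, and without any other single library both were called.

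Glutamate tRNAs moved the other way without passing this test. Glu-CTC at 51 nt took 2.41%, 2.88% and 3.46% of reads in heterozygotes and 0.790%, 1.49% and 0.997% in mutants, which did not overlap. Its difference was -0.98 ± 0.29 (adjusted p = 0.0685), and it was called lower in 6 of 8 alternatives that used every library, at -1.44 with total counts, but in 0 of 6 with 1 library left out. Glu-TTC took 0.326%, 0.545% and 0.323% in heterozygotes and 0.190%, 0.355% and 0.137% in mutants, and its difference was -0.40 ± 0.27 (adjusted p = 0.301). At 30 to 35 nt Glu-CTC made up 16.6%, 25.1% and 27.9% of the class in heterozygotes and 6.90%, 13.0% and 13.5% in mutants, also with no overlap. Glu-TTC at that length overlapped, with 1.41%, 1.41% and 2.59% against 0.9496%, 1.74% and 0.857%.

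Gly-GCC, the Dnmt2 substrate with the most reads, was set apart by 1 library. At 51 nt it took 0.306%, 0.243% and 0.365% of heterozygote libraries and 0.480%, 0.294% and 4.17% of mutant libraries. The mutant recovery value came from 213 of 342 reads, 195 of them exact copies of the gene. Its share of the 30 to 35-nt reads in that library, 56.1%, lay within the range of the other 5, 35.03% to 60.8%. The genotype difference was 1.88 ± 0.74 (edgeR adjusted p = 0.143), and it was 0.85 without mutant recovery and 0.72 without heterozygote recovery, neither of them called. It was called in 5 of 8 alternatives that used every library, DESeq2 among them, and in 2 of 6 with 1 library left out.

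**Figure D3:**
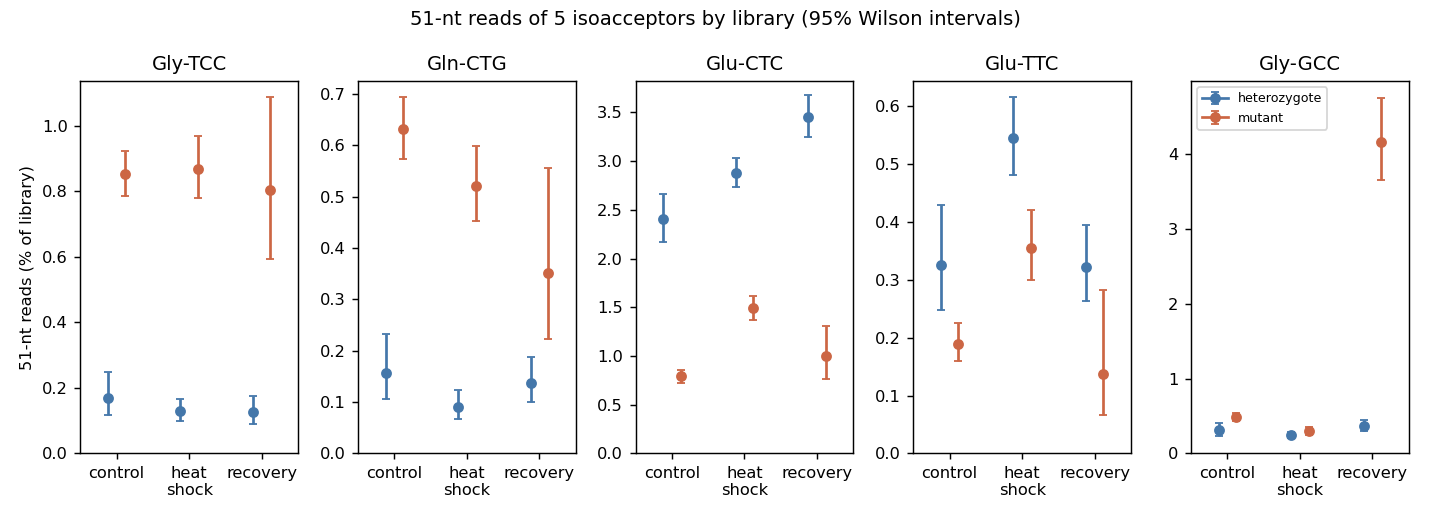
Reads of 51 nt from 5 isoacceptors as a percentage of the library, by condition, for heterozygotes (blue) and mutants (red); points are single libraries and bars are 95% Wilson intervals of counting error. Gly-TCC and Gln-CTG are higher in mutants in each condition, Glu-CTC and Glu-TTC lower, and Gly-GCC is at 4.17% in mutant recovery alone.

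Gene copies were then counted apart. Copies were told apart by the bases in which they differ, so identical genes are counted together, and the copy names are those of RefSeq. Gly-TCC-1 had 26, 59 and 36 reads of 51 nt in heterozygotes, against 568, 304 and 35 in mutants. Mutant over heterozygote, per read of the library, this was 2.31 in log2 in control (exact 95% interval 1.75 to 2.94), 2.66 in heat shock (2.26 to 3.09) and 2.44 in recovery (1.73 to 3.15). The less used copy Gly-TCC-2 had 0 reads in heterozygotes and 6, 21 and 6 in mutants. In a fit by copy in place of isoacceptor, a choice made after the data were seen, Gly-TCC-1 rose by 2.94 ± 0.27 (edgeR adjusted p = 0.000284). This copy held 1028 of the 1061 Gly-TCC reads, so the fit used nearly the same values again. It also passed the count minimum through the mutant libraries alone.
Among the glutamine copies, Gln-CTG-4 had 2, 7 and 8 reads against 228, 64 and 7, and Gln-CTG-3 had 5, 6 and 5 against 109, 35 and 4. Gln-CTG-2 had 17, 26 and 23 against 77, 87 and 7, a log2 ratio of 0.04 in control (-0.73 to 0.89), 2.04 in heat shock (1.39 to 2.73) and 0.76 in recovery (-0.70 to 2.03). Gln-CTG-3 in control was at 2.31 (1.04 to 3.96). The difference between these copies was not tested. Gln-TTG-1, below the count minimum for a named isoacceptor and added after its values were seen, had 1, 4 and 4 reads against 49, 24 and 2.

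**Figure D4:**
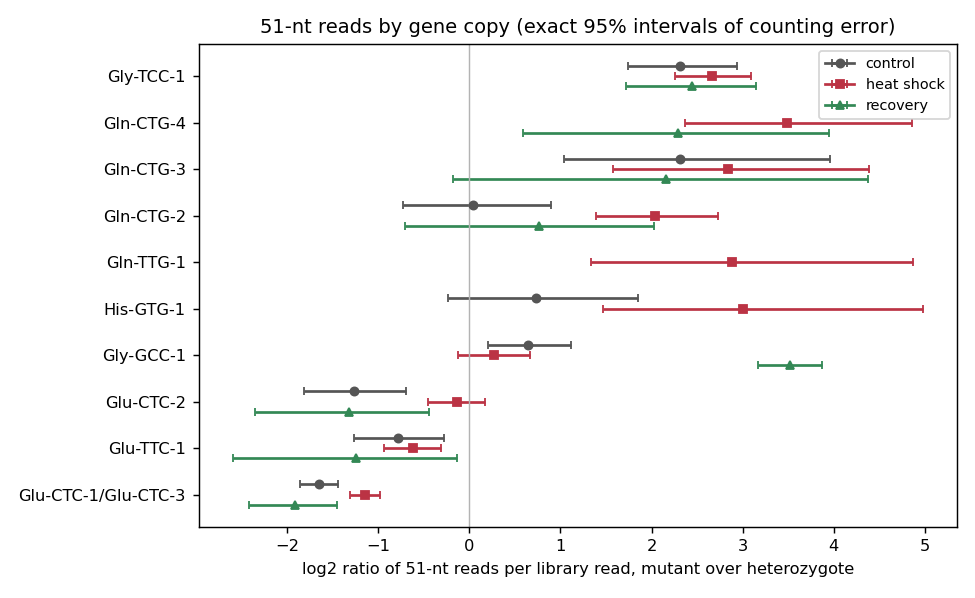
Log2 ratio of 51-nt reads per library read, mutant over heterozygote, for 10 gene copies or groups of copies with equal starts, 1 point per condition with exact 95% intervals of counting error; ratios with 3 or fewer reads on a side are not drawn. Gly-TCC-1 lies at 2.31 to 2.66 in the 3 conditions, and Glu-CTC-1/Glu-CTC-3 below 0 in each.

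The genotype difference at 51 nt was set against that of shorter reads from the same tRNAs. At 30 to 35 nt, reads that Gly-TCC-1 alone holds numbered 14, 13 and 44 in heterozygotes and 124, 39 and 4 in mutants. Those of Gln-CTG-2 alone numbered 14, 12 and 73 against 26, 27 and 2, so that most of the heterozygote reads came from recovery. Reads shared by Gln-CTG-2 and Gln-CTG-3 numbered 11, 8 and 11 against 49, 20 and 4, those of Gln-CTG-4 0, 1 and 0 against 4, 4 and 0, and those of Gln-TTG-1 3, 6 and 31 against 36, 17 and 0. The heterozygote libraries held 89916 reads in all and the mutant ones 110053. The test of whether the genotype difference at 51 nt differed from that at 30 to 35 nt called 3 of 8 isoacceptors (37.5%): Gln-CTG at 3.45 ± 0.77 (edgeR adjusted p = 0.00308), Gly-TCC at 3.34 ± 0.81 (adjusted p = 0.00308) and Gly-GCC at 2.41 ± 0.88 (adjusted p = 0.0399). These were the 8 isoacceptors of the length class test, chosen by the same minimum, and on simulated data of this size the test missed most changed features and called some unchanged ones. The median over the 8 was 1.43 here and -0.03 with total counts, where Gln-CTG was at 1.97 and Gly-TCC at 1.86, both called, and Gly-GCC at 0.99 was not. Neither of the first pair was called with relative-log size factors (adjusted p = 0.0736 for each), without the count minimum, or without mutant recovery. Gln-CTG missed the threshold without heterozygote recovery too (adjusted p = 0.0511), and Gly-GCC was called in 2 of 7 alternatives with every library.

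Heat shock and recovery left the 51-nt reads without a called change. The heat shock term called 3 of 27 features (11.1%), all of 30 to 35 nt: Cys-GCA was higher by 2.47, Pro-CGG lower at -1.56 and Pro-TGG lower at -1.37. Of the 5 features of 51 nt, 0 had an unadjusted p under 0.05, and DESeq2 called 1 of them. That was Glu-TTC, at 0.69 ± 0.31 in edgeR (adjusted p = 0.203) and 0.93 in DESeq2. It was also called without heterozygote recovery, at 0.78. Glu-TTC of 51 nt took 0.326% of the library in heterozygote control and 0.545% in heat shock (50 and 251 reads). In mutants it took 0.190% and 0.355% (128 and 133 reads). The recovery term called 0 of 27 features (0%), with 4 at an unadjusted p under 0.05, and DESeq2 called 4, of which 0 were 51-nt features. Gly-GCC at 51 nt was at 1.57 ± 0.86 for recovery (adjusted p = 0.288). It was at -0.39 without mutant recovery and at 2.99 without heterozygote recovery, each of which leaves 1 recovery library.

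The 51-nt reads almost all began at the first base of the tRNA. Their start could be read on 7460 reads whose gene was rebuilt to its annotated length, and 7366 of these began at base 1. By library this was 98.5%, 98.8% and 98.1% in heterozygotes and 99.1%, 98.9% and 98.2% in mutants. At 30 to 35 nt the shares were 97.2%, 97.3% and 95.4% and 98.1%, 98.0% and 97.9%. Mutant minus heterozygote at 51 nt was 0.29 ± 0.27 percentage points (SD, 3 conditions; exact sign-flip test, 2-sided, p = 0.25, the smallest possible), higher in 3 of 3. On exact-match reads the mean was 0.11 points, and the heat shock difference turned to -0.14.
The other starts lay close by, with 12 reads from base 2, 41 from base 3 and 29 from base 4. From base 5 onward there were 12 reads in all. Gly-TCC had 23 of 1061 reads away from base 1, of which 17 began at base 4, Gly-GCC 18 of 910, of which 14 began at base 3, Glu-CTC 29 of 3821 and Glu-TTC 0 of 661, which allows up to 0.454%. Lys-CTT had 7 of 39.

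Base differences from the gene were counted position by position, because modified bases are often miscopied in sequencing. A 51-nt read was listed with up to 3 differences, and these lay between read positions 7 and 45. In human and yeast tRNAs, a guanine at position 9 is commonly methylated at its base-pairing edge, which makes reverse transcriptase miscopy it. Where the gene has G there, 146 of 3461 reads differed (4.22%, 95% Wilson interval 3.60 to 4.94%), not counting C read at A. Where it has T, which is the case for Glu-CTC, 0 of 3819 differed, which allows up to 0.0786%.
Position 9 differed in 69 of 716 reads of Gln-CTG (9.64%), 12 of 87 of Gln-TTG (13.8%), 35 of 1061 of Gly-TCC (3.30%) and 30 of 910 of Gly-GCC (3.30%). Glu-TTC also has G at that place and differed in 0 of 661, which allows up to 0.454%. By genotype, heterozygotes first, the shares were 13.3% and 9.06% for Gln-CTG, 3.31% and 3.30% for Gly-TCC, and 3.42% and 3.25% for Gly-GCC. The intervals of the genotypes overlapped in each.
Examples of sequences with such a change, from 3 of the copies shown above, are these, with 16, 12 and 5 reads and the changed base in capitals.
Gly-TCC-1, G9T, arm 3R: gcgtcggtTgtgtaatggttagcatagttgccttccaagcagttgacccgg
Gln-CTG-4, G9C, arm 2L: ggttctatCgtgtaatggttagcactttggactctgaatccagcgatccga
Gln-TTG-1, G9T, arms 3L and 3R: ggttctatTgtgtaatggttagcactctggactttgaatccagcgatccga
G9T was the most frequent of these changes in Gln-CTG, with 38 reads against 22 of G9C and 9 of G9A, and in Gly-TCC, with 18 against 10 and 7. In Gly-GCC it was G9A, with 17 against 6 and 7.

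**Figure D5:**
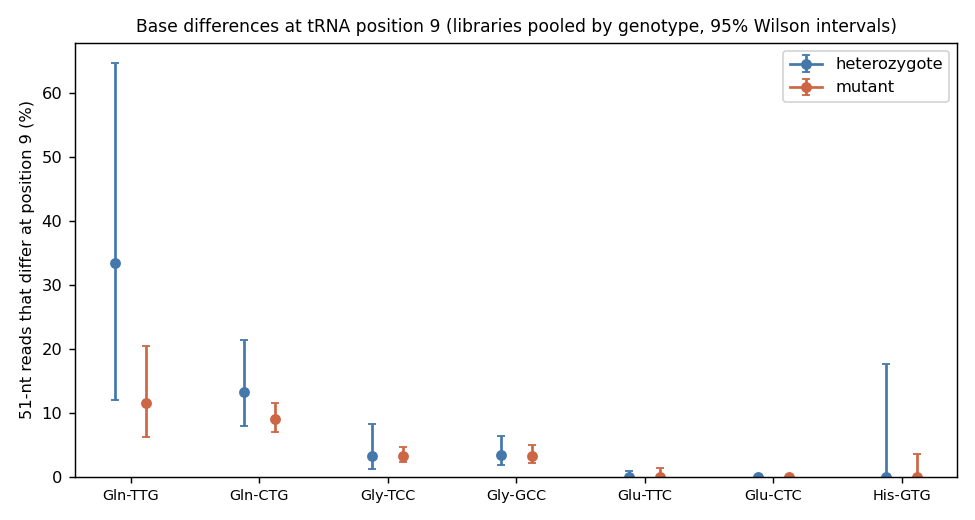
Share of 51-nt reads that differ from the gene at tRNA position 9, in percent, with the 3 libraries of a genotype pooled and 95% Wilson intervals. The gene has G at this position in the first 5 isoacceptors, and among these Glu-TTC is at 0 of 661.

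In other tRNAs the differences lay elsewhere. Leaving out C read at A, of 312 positions with at least 100 reads, the second highest share after Gln-CTG position 9 was position 20 of Glu-TTC, a T in the D loop, where dihydrouridine is usual. It differed in 29 of 661 reads (4.39%), with 17 deletions and 12 reads of T20C. Pro-AGG, outside the rule for named isoacceptors and taken up after its values were seen, had the change A33G in 17 of 20 reads, in 4 of 6 from heterozygotes and 13 of 14 from mutants. This is the first base of the anticodon in the form shown here, and inosine is read as G.
Pro-AGG-1, A33G, arms 2L and 3L: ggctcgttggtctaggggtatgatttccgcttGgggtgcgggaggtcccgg

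C read at an A of the gene was seen mostly in mutant reads and at fixed read positions, in each of the 4 isoacceptors given here. At read position 24 it stood in 452 of 3124 mutant reads (14.5%) and 3 of 3288 heterozygote reads (0.0912%), at position 7 in 16.1% and 0.126%, and at position 37 in 4.88% and 0.215%. Some positions had small shares that were higher in heterozygotes, among them 26 (0.664%, against 0 of 2351 mutant reads) and 43 (0.673% against 0.0823%). By isoacceptor the mutant share at position 24 was 16.7% for Gly-TCC, 17.0% for Gln-CTG, 11.6% for Glu-CTC and 10.8% for Glu-TTC. Reads that matched a gene exactly were 90.7%, 90.9% and 91.1% of 51-nt reads in heterozygotes and 69.6%, 69.4% and 82.5% in mutants. The genotype comparisons were therefore repeated with 51-nt reads limited to exact matches and shorter reads left whole. Gly-TCC rose there by 2.59 (edgeR adjusted p = 3.54e-06), and Gly-GCC was called as well, at 1.90 (adjusted p = 0.00417). In mutant recovery 195 of the 213 Gly-GCC reads of 51 nt were the exact start of the gene. Whether this Gly-GCC call holds without that library was not tested. Gly-TCC again reached the count minimum through the mutant libraries alone, so among the features tested it had to differ. Glu-CTC at -1.59 (adjusted p = 0.0136) and Glu-TTC at -1.09 (adjusted p = 0.0385) were called lower there. The limit to exact matches removed a larger part of the mutant than of the heterozygote reads, which by itself lowers 51-nt values in mutants. How much of these lower values came from that was not tested. Gln-CTG fell under the count minimum in that table.
A change in the other direction was seen in Glu-CTC, where A43G stood in 36 of 2678 heterozygote reads and 1 of 1143 mutant reads. The heterozygote reads were 4, 22 and 10 in control, heat shock and recovery, and the mutant read was from heat shock. This genotype difference was not tested.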

How the data were processed

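The deposited tables hold raw read counts per listed sequence and tRNA gene. Bowtie and build dm3 are named in the submitters' processing notes, without versions or settings. A read was listed under every gene it matched, and in a shortened form where a gene differed near its end, so such forms were taken off and each read was counted once. Reads of 51 nt with a difference in the outer 6 bases are listed shorter and so lie outside the class. Gene sequences were rebuilt by joining reads (overlap of 16 nt). Of 297 genes, 288 matched RefSeq (Release 6 plus ISO1 MT) by synonym, and 138 were rebuilt to the length it gives. Printed sequences come from the deposited tables. Each 51-nt read went to the gene with fewest differences (edlib 1.3.9.post1); 7504 were placed and 13 were not.

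The tests used edgeR 4.0.16 (R 4.3.3) on features that reached, in 3 columns, the rate of 10 counts in the smallest column, at an adjusted p under 0.05, and were tried on simulated data. Intervals are 95% Wilson or exact, and limits of a count of 0 take 3 counts. Alternatives were DESeq2 1.42.0, other scalings and filters, the listed forms, exact matches and leaving out each library. The text names isoacceptors with at least 100 reads of 51 nt, those called in a test, and the Dnmt2 substrates; exceptions are stated. The members, lists and tests were chosen with earlier results of these data known.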

Additional observations from a re-analysis of the deposited data

Results flagged for a closer look

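For 3 isoacceptors the genotype difference at 51 nt departed from the genotype difference at 30 to 35 nt in a test of that departure (edgeR, adjusted p under 0.05). The log2 values were 3.45 for Gln-CTG, 3.34 for Gly-TCC and 2.41 for Gly-GCC. For Gln-CTG and Gly-TCC the 51-nt reads, as a share of the library, were higher in mutants in 3 of 3 conditions. At 30 to 35 nt Gly-TCC took 0.129%, 0.0451% and 0.222% of the class in heterozygotes and 0.221%, 0.138% and 0.119% in mutants. Gln-CTG took 0.213%, 0.0664% and 0.396% there, against 0.146%, 0.173% and 0.167%. With each distinct sequence counted once as listed, the log2 values were 1.25 for Gln-CTG and 0.999 for Gly-TCC. Both calls were lost with relative-log size factors, without the count minimum and without mutant recovery. For Gly-GCC the reads were 213 of 342 in mutant recovery, and the call was lost with total counts, size factors of either tool, and no count minimum. Groups of 1 library cannot be searched for an outlying sample.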

How the results depend on the processing

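Counts of called 51-nt features are given here in place of the 7, 2, 0, 0 and 3 called for length class, genotype, heat shock, recovery and genotype by length class. Without the count minimum the length class test called 22 of 47 isoacceptors or shared groups (4 higher, 18 lower). Genotype then called 5 of 26, and genotype by length class 0. Total counts and DESeq2 each called 4 of 5 for genotype (2 and 3 of them higher), and exact-match reads 4 of 4. Isoacceptors as listed, a choice made after the data were seen, gave 5 of 6. Over all length classes the genotype term called 9 of 27 features with total counts and 8 of 27 with DESeq2. It called 5 of 26 with exact-match reads, 7 of 28 as listed and 6 of 119 without the count minimum. Relative-log size factors called 1 for heat shock (Glu-TTC, as did DESeq2) and 0 for genotype by length class. Over all length classes the heat shock term called 6 of 27 features with these factors and 9 of 27 with DESeq2. With 1 library left out the calls ran from 5 to 7 for length class, 0 to 3 for genotype, 0 to 1 for heat shock, 0 to 1 for recovery and 0 to 4 for genotype by length class.

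The class difference of Glu-CTC, not called, turned to -0.54 with relative-log size factors, -0.50 with DESeq2, -0.61 on exact-match reads and -0.060 on reads from the first base, and ran from -0.59 to 0.68 with 1 library left out. For Gly-GCC, not called for heat shock or recovery with every library used, leaving out 1 library gave -1.77 to 0.55 and -0.39 to 2.99. The genotype difference in starts at base 1 was 0.68 points without Gly-GCC and 0.11 points on exact-match reads. The genotype difference in the share of 51-nt reads was -0.14 points on exact-match reads, a limit that removed a larger part of the mutant reads. The cause of these moves was not tested, apart from features that a smaller library set takes under the count minimum.

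No paired analysis was possible by replicate number because each group is 1 library and the labels give no such number; libraries were paired by condition, and length classes by library. With 342 reads of 51 nt in mutant recovery, isoacceptors under about 1% of the class rest on 3 or fewer reads there. Reads that end past base 51 and reads that end at it cannot be told apart.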
